A study of Mus musculus with 4 samples.

Results

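The 38 interferon-stimulated genes described here were the rows of the deposited gene count table whose symbol is on a list of interferon-induced genes and the transcription factors that drive them, out of 56748 rows. All 38 passed the filter on low counts and entered the test together with the other genes, 15167 in all. The lowest count of any of them in any library was 11, for Mx2 in a saline library. RNA came from lungs with metastases of 4T1-FLuc, a luciferase-carrying mouse triple-negative breast cancer line, in female BALB/cJ mice that were 7 weeks old when the cells were injected into the tail vein. The 2 saline libraries came from mice given saline, called PBS in part of the labels. The 2 treated libraries, cmLumiOpto_PARPi, came from mice given cmLumiOpto, a mitochondria-targeted luminoptogenetic gene therapy carried by exosome-associated adeno-associated virus with an anti-CD276 antibody on its surface, together with ViviRen, its luciferase substrate, at 2 mg/kg and olaparib, which inhibits PARP, at 50 mg/kg, for 3 weeks. No library had the vector, the substrate or olaparib alone and none came from a lung without tumour, so the contributions of the agents cannot be told apart. The labels number the libraries of a group without saying whether each is 1 mouse, so the p-values measure only the spread between these libraries.

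Library totals ran from 15263375 to 16755228 counts. The labels speak of tumour cells taken from the lungs, while the libraries held lung transcripts as well as keratins of epithelial and tumour cells. Sftpc, the surfactant protein C of alveolar type 2 cells, stood at 1019.9 and 176 CPM in the saline libraries. In the treated ones it stood at 6153 and 2092. CPM are counts scaled to library size with TMM factors. Each library is thus taken as a mixture of tumour, lung and immune cells, and the keratins do not give the tumour part. In such bulk samples fewer cells of a type and less RNA per cell cannot be told apart.

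Interferons are secreted proteins that cells release when they sense foreign or misplaced nucleic acid, or, for interferon gamma, that T and NK cells release on activation. Type I interferons signal through JAK1 and TYK2 to a complex that holds STAT2 and IRF9 and binds the interferon-stimulated response element (ISRE). Interferon gamma acts through the gamma-activated site (GAS) and induces IRF1. The genes switched on in turn sense viral RNA, block translation, degrade RNA, trap virions at membranes or attack vacuoles that hold pathogens. In a tumour-bearing lung the same genes are expressed by tumour, epithelial, endothelial and immune cells.

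Letters that match these elements occur in many promoters of the listed genes. RefSeq promoter windows (build GRCm38.p6, 250 bases before to 50 after the start of transcription) were found for 29 of the 38 genes, all but Usp18, Dhx58, Oas2, Mx1, Mx2, Ifi27l2a, Iigp1, Zbp1 and Rtp4. The ISRE letters GAAANNGAAA, read on both strands, stood in the windows of 18 of the 29 genes (62.1%), against 3.99% of all 27025 genes with a window. The GAS letters TTCNNNGAA, which read the same on both strands, stood in 9 of the 29 (31.0%), against 9.55% of all genes with a window, and 6 genes held both. Stretches around the matches are shown for genes of the ISG15, IFIT and OAS families and for Rsad2, for all of which both treated libraries lay above both saline ones, 5′ to 3′ on the strand of the gene, with the ISRE letters in capitals.
Isg15, chr4:156200855-156200916, minus strand: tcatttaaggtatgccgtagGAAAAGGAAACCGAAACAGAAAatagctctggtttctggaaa
Ifit1, chr19:34640765-34640833, plus strand: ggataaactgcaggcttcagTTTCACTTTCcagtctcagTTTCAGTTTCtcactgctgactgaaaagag
Ifit3, chr19:34583353-34583436, plus strand: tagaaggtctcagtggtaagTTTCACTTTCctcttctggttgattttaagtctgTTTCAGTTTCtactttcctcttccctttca
Ifit3b, chr19:34607749-34607832, plus strand: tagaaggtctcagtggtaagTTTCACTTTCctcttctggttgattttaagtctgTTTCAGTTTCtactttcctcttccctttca
Oas1a, chr5:120907526-120907565, minus strand: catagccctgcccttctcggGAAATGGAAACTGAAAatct
Oas1g, chr5:120887614-120887651, minus strand: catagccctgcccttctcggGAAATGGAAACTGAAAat
Rsad2, chr12:26456543-26456592, minus strand: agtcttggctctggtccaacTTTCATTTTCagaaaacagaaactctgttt
The stretches of the neighbouring genes Ifit3 and Ifit3b were identical over 84 bases, and those of Oas1a and Oas1g were identical over the 38 bases compared. In Isg15 3 overlapping matches made a single run ending 57 bases before the start site. Oas1a also held the GAS letters, farther upstream than the stretch shown. Gbp2, Igtp and Irf1, for which treated replicate 2 was the lowest library, are shown beside them, with the GAS letters of Igtp and Irf1 also in capitals.
Gbp2, chr3:142620584-142620633, plus strand: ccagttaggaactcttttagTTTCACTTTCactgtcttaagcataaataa
Igtp, chr11:58199491-58199551, plus strand: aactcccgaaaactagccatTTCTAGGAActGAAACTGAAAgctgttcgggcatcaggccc
Irf1, chr11:53769904-53769952, plus strand: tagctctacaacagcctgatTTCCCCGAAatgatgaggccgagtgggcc
In Igtp the GAS and ISRE letters lay side by side, whereas the Irf1 stretch held the GAS letters alone. Of the 7 interferon-induced GTPases, 6 had a window and all 6 held the ISRE letters. Genes with and without the ISRE letters covered overlapping ranges of fold change. The median log2 fold change was 0.67 over the 18 with a match (from -0.53 to 1.97) and 0.88 over the 11 without (from 0.02 to 1.22). The 18 included these 6 GTPases, with log2 fold changes from -0.53 to 0.27, and the 11 included no interferon-induced GTPase. The medians thus compare different classes of genes. A match is a run of letters in a reference genome of another strain, not an observed binding site.

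**Figure D1:**
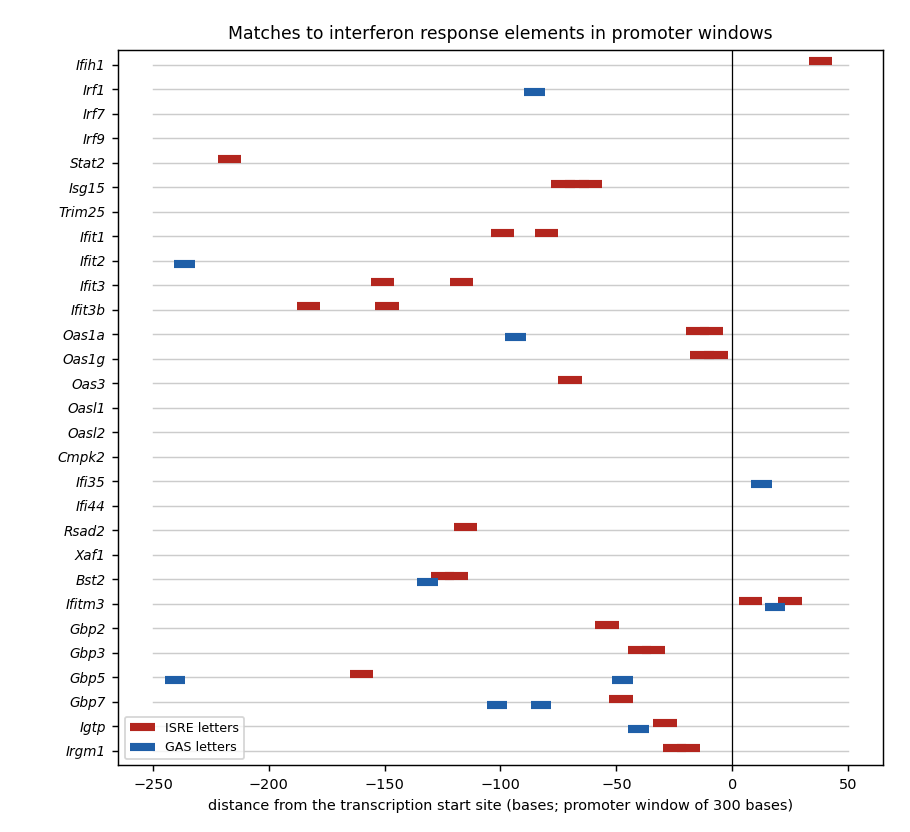
Position of the ISRE letters (red) and GAS letters (blue) in the promoter windows of 29 interferon-stimulated genes; the horizontal axis is the distance in bases from the transcription start site and each row is 1 gene, ordered by role. Matches stood in 21 of the 29 rows and 8 rows held neither.

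Treated against saline lungs, most of the genes were higher on average, yet none passed the test. The median log2 fold change of the 38 genes was 0.87, against 0.02 over all genes tested. Of the 38, 34 had a positive value, as did 7881 of the 15167 genes tested. No gene of the list had an adjusted p under 0.05 in edgeR's quasi-likelihood test, nor did any of the 15167 genes tested (0% called). At an unadjusted p under 0.05, 12 of the 38 genes were higher, against 9.21% of all genes tested, and 0 were lower, against 12.0%. DESeq2, run as a second tool, called 3 of the 38 higher at an adjusted p under 0.05 (2.14% of all genes) and 0 lower (4.52%). For 14 of the 38 the lower treated library exceeded the higher saline one (27.4% of all genes), for 0 the reverse held (27.8%), and for 24 the groups overlapped. With 2 libraries against 2, an exact permutation test of a single value cannot go below p = 0.333.

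A single library carried much of this difference. Treated replicate 1 had the highest level of the 4 libraries for 37 of the 38 genes, against 32.0% of all genes tested, and Gbp2 was the exception. Treated replicate 2 was below treated replicate 1 for all 38, by a median of 1.39 on the log2 scale, where the median over all genes was 0.002. Relative to the saline libraries, treated replicate 2 lay above both for 14 genes, between them for 11 and below both for 13. For 30 of the 38 genes the gap between the treated libraries was larger than the gap between the group means, as it was for 43.0% of all genes tested. The saline libraries were apart as well, with saline replicate 1 above saline replicate 2 for 37 genes, all but Trim25, by a median of 0.60.

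Leaving out 1 library at a time moved the median of the list and its counts at an unadjusted p. Without treated replicate 1 the median log2 fold change was 0.01, 19 genes were positive and 19 negative, and at an unadjusted p under 0.05 0 genes were higher and 7 lower (7.67% of all genes lower). Without treated replicate 2 it was 1.38, and 31 genes were higher at that p (9.82% of all genes). Without saline replicate 1 the median was 1.32 with 21 higher (9.20%), and without saline replicate 2 it was 0.48 with 0 higher (4.22%). No gene of the list had an adjusted p under 0.05 in any of these 4 fits, each of which leaves 1 group with a single library that is assumed to vary like the other group.

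**Figure D2:**
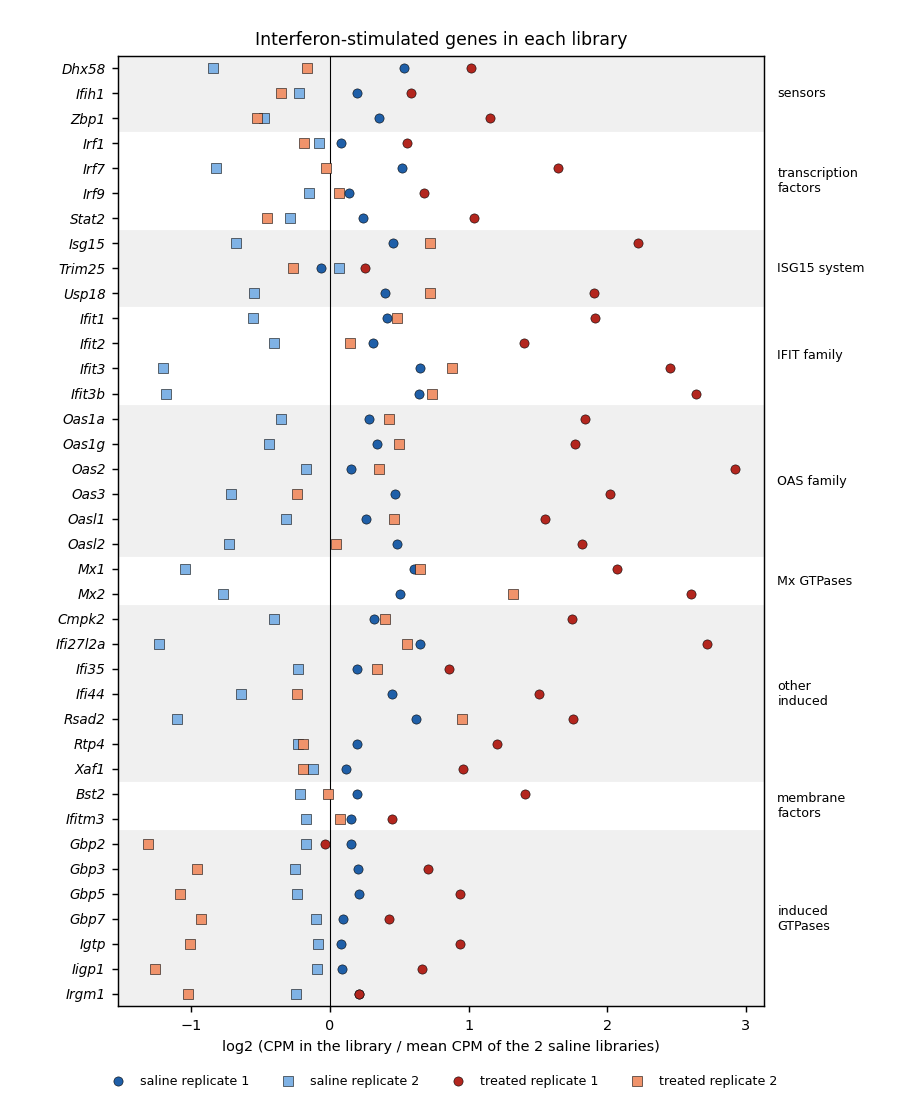
Level of each of the 38 genes in the 4 libraries, as log2 of the CPM over the mean CPM of the 2 saline libraries; rows are genes grouped by role, blue symbols are saline, red and orange symbols are treated, and circles and squares are replicates 1 and 2. Treated replicate 1 lies farthest right in 37 of 38 rows, while treated replicate 2 lies farthest left in all 7 rows of the interferon-induced GTPases.

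The sensors of double-stranded nucleic acid on the list are Ifih1 (MDA5) and Dhx58 (LGP2), which bind viral RNA in the cytosol, and Zbp1, which binds Z-form nucleic acid and can start necroptosis. Zbp1 stood at 52.2 and 29.4 CPM in saline and 90.9 and 28.3 in treated lungs. Dhx58 stood at 18.4 and 7.09 in saline and 25.7 and 11.3 in treated. For both, treated replicate 1 was highest and treated replicate 2 was inside or just under the saline range. The 3 log2 fold changes ran from 0.19 for Ifih1 to 0.55 for Zbp1, with standard errors of 0.33 and 0.56 that were as large as the values.

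Among the transcription factors Irf7, the master regulator of type I interferon genes and itself interferon-induced, showed the widest spread. It stood at 52.2 and 20.6 CPM in saline and at 114 and 35.7 in treated lungs, a log2 fold change of 1.04 (SE 0.63, adjusted p = 0.386). Stat2 and Irf9, subunits of the ISRE-binding complex, had log2 fold changes of 0.48 and 0.40. Irf1, the factor induced through GAS, was at 155 and 139 in saline and at 216 and 129 in treated lungs. In all 4 genes treated replicate 1 was highest, and treated replicate 2 was between the saline libraries for Irf7 and Irf9 and below both for Irf1 and Stat2. Their difference between groups did not exceed the spread between libraries.

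The ISG15 system conjugates a ubiquitin-like protein to newly made proteins. Isg15 (chr4:156199424-156200818, minus strand, GRCm38) encodes that protein and stood at 24.96 and 11.4 CPM in saline and 84.97 and 29.96 in treated lungs. The means were 18.2 ± 9.55 CPM (SD, n = 2) and 57.5 ± 38.9 CPM (SD, n = 2). The groups did not overlap, and the log2 fold change of 1.66 (SE 0.57) had an unadjusted p of 0.0288 and an adjusted p of 0.196. Without treated replicate 1 the log2 fold change was 0.71. Usp18 (chr6:121245906-121270917, plus strand) removes ISG15 again and also restrains the type I interferon receptor. It was at 12.8 and 6.68 in saline and at 36.4 and 16.1 in treated lungs, without overlap, a log2 fold change of 1.43 (SE 0.48, adjusted p = 0.190) that was 0.72 without treated replicate 1. DESeq2 gave Usp18 an adjusted p of 0.0396, and over all 11 alternatives with a test its adjusted p ran from 1.3e-05 to 0.555. Trim25, a ligase for ISG15 and for the RNA sensor RIG-I, did not share this order: it stood at 120.3 and 132 in saline and at 150.5 and 105 in treated lungs, a log2 fold change of 0.02.

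IFIT proteins bind viral RNA that lacks the host cap marks and stop its translation. The 4 genes on the list lie together on chromosome 19. Of these, 3 were higher without overlap between groups, as were 27.4% of all genes tested. Ifit3 (chr19:34583531-34588731, plus strand) stood at 22.1 and 6.13 CPM in saline and 77.3 and 25.9 in treated lungs, a log2 fold change of 1.86 (SE 0.72, adjusted p = 0.223). Its neighbour Ifit3b was at 7.21 and 2.04 against 28.8 and 7.70, a log2 fold change of 1.97. Ifit1 was at 13.7 and 7.02 against 38.7 and 14.4, a log2 fold change of 1.36. Without treated replicate 1 these log2 fold changes were 0.87 for Ifit3, 0.73 for Ifit3b and 0.48 for Ifit1. In each of these genes treated replicate 2 exceeded saline replicate 1 by less than the saline libraries differed, and saline replicate 2 was lowest. Ifit2 overlapped, at 30.7 and 18.8 against 65.3 and 27.4, a log2 fold change of 0.90. Of the distinct 100-base stretches in the Ifit3 transcripts, 31.7% also occur in Ifit3b, so reads could be shared between these neighbours and their separate values are uncertain.

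Most OAS proteins make the second messenger that switches on RNase L, which degrades RNA, and the 6 genes on the list lie on chromosome 5. Oas2 (chr5:120730333-120749853, minus strand) had the highest log2 fold change of the 38 genes, 2.14 (SE 0.80, adjusted p = 0.214). It stood at 3.76 and 2.998 CPM in saline and at 25.6 and 4.33 in treated lungs, so that the value rests on treated replicate 1, and without that library it was 0.35. Oas1a was at 31.04 and 19.97 against 91.3 and 34.2, a log2 fold change of 1.30 (SE 0.48, adjusted p = 0.210) that was 0.42 without treated replicate 1. DESeq2 gave Oas1a and Oas2 adjusted p-values of 0.0447 and 0.0404, and over the 11 alternatives these ran from 1.17e-07 to 0.635 and from 2.05e-07 to 0.812. Oas1g and Oasl1 also lay without overlap, with log2 fold changes of 1.27 and 1.11, and of 0.50 and 0.46 without treated replicate 1. Over all genes tested, 27.4% were higher without overlap. Oas3 and Oasl2 overlapped: Oas3 stood at 18.3 and 8.04 against 53.4 and 11.2, and its log2 fold change of 1.29 turned to -0.24 without treated replicate 1. Oas1a shares 40.9% of its distinct 100-base stretches with Oas1g, and these values are uncertain in the same way.

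Mx proteins are dynamin-like GTPases that block viral nucleocapsids, and Mx1 is defective in most laboratory mouse strains. Both genes were lowly expressed and were higher without overlap between groups, as were 27.4% of all genes tested. Mx2 (chr16:97535308-97560900, plus strand) stood at 1.82 and 0.750 CPM in saline and 7.77 and 3.19 in treated lungs, a log2 fold change of 2.08 (SE 0.65). Its adjusted p of 0.177 was the lowest on the list. Mx1 was at 2.57 and 0.818 against 7.08 and 2.65, so that treated replicate 2 exceeded saline replicate 1 by less than the saline libraries differed. Without treated replicate 1 the log2 fold change was 1.30 for Mx2 and 0.63 for Mx1.

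Of the other induced genes, Rsad2 (viperin, which makes a chain-terminating nucleotide) and its neighbour Cmpk2 (a mitochondrial nucleotide kinase) lie next to each other on chromosome 12. Rsad2 stood at 11.04 and 3.34 CPM in saline and 24.2 and 13.9 in treated lungs, a log2 fold change of 1.40 (SE 0.58, unadjusted p = 0.0537). Cmpk2 stood at 14.6 and 8.86 against 39.3 and 15.4, a log2 fold change of 1.22 (SE 0.49). Both were higher without overlap between groups, as were 27.4% of all genes tested. Without treated replicate 1 the log2 fold change was 0.94 for Rsad2 and 0.39 for Cmpk2, and without saline replicate 2 it was 0.77 and 0.89. Ifi35 was at 40.6 and 30.3 against 64.5 and 44.9, a log2 fold change of 0.63 (SE 0.24). Ifi27l2a, a small interferon-induced membrane protein, had a log2 fold change of 2.00 (SE 0.85) with overlapping groups, at 18.9 and 5.11 against 78.99 and 17.7, and this value was 0.55 without treated replicate 1 and 3.22 without saline replicate 1. Ifi44, Rtp4 and Xaf1 overlapped as well, with log2 fold changes from 0.49 to 0.88 that were negative, from -0.24 to -0.19, without treated replicate 1.

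The membrane restriction factors were the most highly expressed genes of the list per length. Ifitm3, which keeps enveloped viruses in endosomes, reached 759.8 CPM per kilobase in saline and 916 in treated lungs, followed by Bst2 (tetherin, which holds budding virions) at 209 and 381. On the same scale Mx2 was lowest in saline, at 0.356. Ifitm3 stood at 572 and 458 CPM in saline and 702 and 540.3 in treated lungs, a log2 fold change of 0.27 (SE 0.20) that turned to -0.17 once a trend on gene length and mean level was taken off. Bst2 stood at 216 and 163 against 501 and 187, a log2 fold change of 0.86 (SE 0.45) and -0.02 without treated replicate 1. For both genes treated replicate 2 was between the saline libraries.

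The interferon-induced GTPases ran differently. Gbp2, Gbp3, Gbp5 and Gbp7 (guanylate-binding proteins) and Iigp1, Igtp and Irgm1 (immunity-related GTPases) attack or mark vacuoles that hold pathogens and are strongly induced by interferon gamma. Treated replicate 2 was the lowest library for all 7, against 18.8% of all genes tested, and for 6 of the other 31 genes. Gbp2 (chr3:142620602-142638008, plus strand) stood at 409.6 and 326 CPM in saline and at 359.8 and 148 in treated lungs, a log2 fold change of -0.53 (SE 0.40, adjusted p = 0.477). Igtp stood at 150.1 and 134 against 272 and 70.5, a log2 fold change of 0.27 (SE 0.57). Iigp1 stood at 180.4 and 159.8 against 269 and 70.8, a log2 fold change of -0.0004 (SE 0.56). In these genes the treated libraries lay on either side of the saline pair, except in Gbp2, where treated replicate 1 fell between them, and in Irgm1, where it matched saline replicate 1 at 187. The median of the 7 log2 fold changes was -0.0004, with 3 positive and 4 negative. Without treated replicate 1 all 7 were negative, from -1.31 to -0.93, values that rest on treated replicate 2 as the only treated library. Without treated replicate 2, 6 of 7 were positive and the median was 0.64. With upper-quartile factors Gbp7 turned from -0.09 to 0.01 and Iigp1 to 0.10.

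The ratio between classes of these genes did not overlap between the groups. The summed CPM of the 7 GTPases was 5.47 and 8.88 times that of the 12 IFIT, OAS and Mx genes in the saline libraries, and 2.38 and 2.41 times in the treated ones. The treated libraries were far apart in level, at 1467 and 493 CPM for the GTPases and 617 and 205 CPM for the IFIT, OAS and Mx genes, but close in this ratio. The ratio was chosen after the values were seen, from classes whose fold changes already differed, and has no test. Of all single genes tested, 27.4% were higher and 27.8% lower without overlap.

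**Figure D3:**
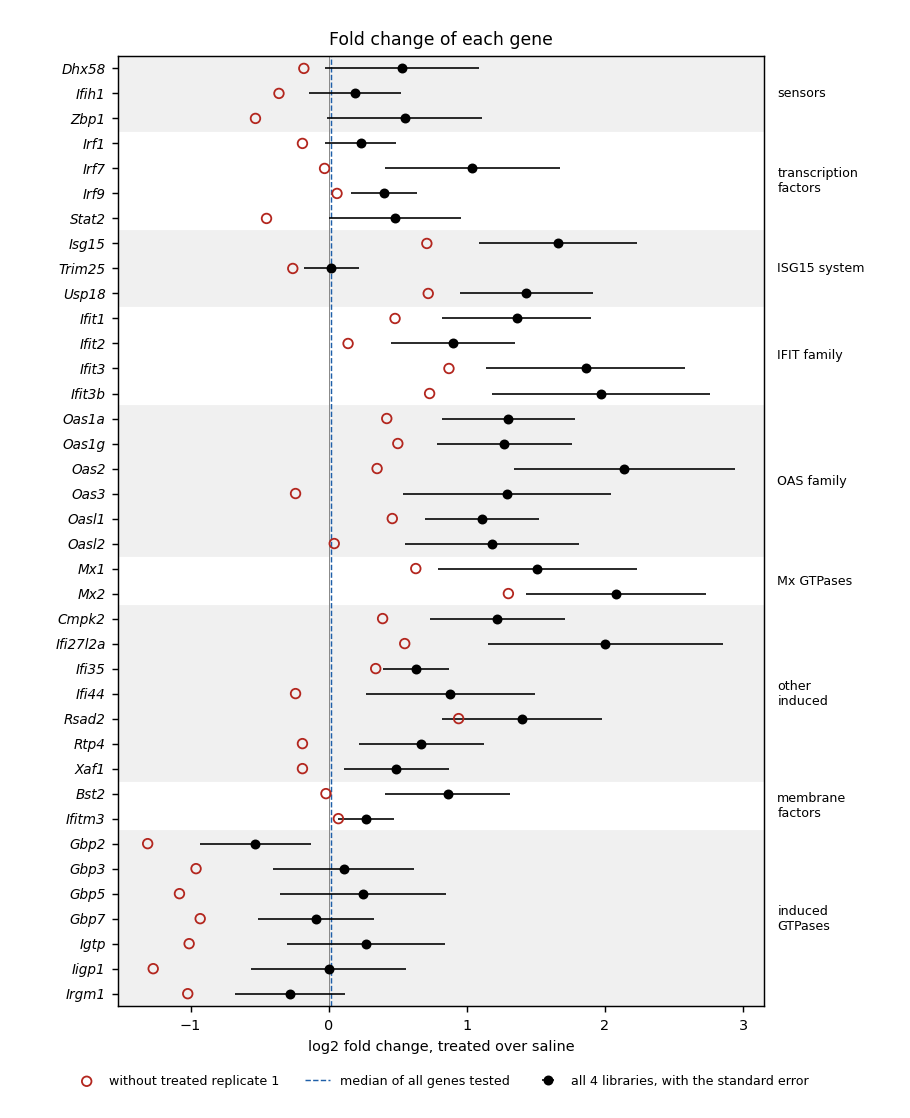
Log2 fold change of each of the 38 genes, treated over saline (black, edgeR, n = 2 against 2), and without treated replicate 1 (red circles). Bars are standard errors worked out from edgeR's F statistic. The dashed line is the median of all genes tested, 0.02. The black points run from -0.53 for Gbp2 to 2.14 for Oas2, and the red circles of the 7 GTPases lie at or below -0.93.

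Interferons themselves were hardly detected, and none of the 21 ligand genes passed the filter. All Ifna genes and Ifnl2 and Ifnl3 had 0 counts in every library, which allows up to 0.173 to 0.204 CPM (3 counts per library, counting error only). The bound does not cover reads that match several genes, whose handling by the counting tool is not given. Ifnb1 had 0 and 0 counts in saline and 2 and 1 in treated lungs. Ifng, the ligand of T and NK cells, had 5 and 9 counts in saline and 37 and 3 in treated lungs, so that treated replicate 1 stood alone. Those were 0.314 and 0.613 CPM against 2.13 and 0.181.

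Over the receptor and signalling genes, the median level relative to the saline mean was 0.954 and 0.826 in the treated libraries. Of 30 genes tested, edgeR called 0 at an adjusted p under 0.05. At an unadjusted p under 0.05 2 were higher, against 9.21% of all genes tested, and 10 lower, against 12.0%, and the median log2 fold change was -0.07. DESeq2 called 2 of the 30, both lower, where it called 4.52% of all genes tested lower and 2.14% higher. Its adjusted p-values were 0.0348 for Irf2bp2 and 0.0494 for Smarca4, a chromatin remodelling ATPase named here after its values were seen. Irf3, the factor that starts interferon transcription after sensing, was at 29.6 and 23.2 CPM in saline and 45.7 and 38.4 in treated lungs, a log2 fold change of 0.67 (unadjusted p = 0.0145). Il10rb, a chain of the interferon lambda receptor, had a log2 fold change of 0.68. The coactivators Ep300 and Crebbp had log2 fold changes of -0.53 and -0.59, and the IRF2-binding proteins Irf2bpl and Irf2bp2 -0.51 and -0.67. Each of them had lower values in both treated libraries. Of the 30, 13 were lower and 5 higher without overlap, against 27.8% and 27.4% of all genes tested.

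Upstream, 26 of the 27 sensing genes in the table were tested, with a median log2 fold change of 0.16. At an unadjusted p under 0.05 in edgeR 2 were higher and 2 lower, both below the shares of 9.21% and 12.0% over all genes tested, and 0 passed an adjusted p of 0.05. Trex1, the cytosolic DNA exonuclease, is listed at 0 in every library. How overlapping genes were counted is not given, so this 0 does not show absence. Traf6, the ligase behind Toll-like receptors, was at 50.7 and 64.4 CPM against 27.6 and 29.4, a log2 fold change of -1.01 (SE 0.17, adjusted p = 0.138), and Traf3 had a log2 fold change of -0.58. Rnaseh2c, a subunit of the enzyme that clears RNA from DNA, was at 22.7 and 19.5 against 44.6 and 33.2, a log2 fold change of 0.88, and the DNA sensor Aim2 had a log2 fold change of 0.87. For each of these 4 genes, named for their low p, the treated and saline libraries did not overlap. Of the 26, 7 were higher and 5 lower without overlap, against 27.4% and 27.8% of all genes tested. DESeq2 called 3 of the 26 at an adjusted p under 0.05, against 6.67% of all genes tested. Its adjusted p-values were 0.00164 for Traf6, 0.0208 for Rnaseh2c and 0.0331 for Traf3.

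Over a wider list of other interferon-induced genes the values spread around a smaller median. Of 102 tested, 4 were higher and 3 lower at an unadjusted p under 0.05 in edgeR, both below the shares of 9.21% and 12.0% over all genes tested. The median log2 fold change was 0.19, and 0 passed an adjusted p of 0.05 in edgeR. Slfn4, a Schlafen gene of myeloid cells, was at 5.08 and 4.97 CPM in saline and 15.03 and 11.97 in treated lungs. Its log2 fold change was 1.42 (SE 0.27, edgeR adjusted p = 0.138). Slfn4 was the 1 gene of the 102 that DESeq2 called, at an adjusted p of 0.00411, against 6.67% of all genes tested. The log2 fold change of Oas1b was 1.72 and that of Ly6c1 1.19, whereas Slfn3 had -0.58, Trim56 -0.53 and Slfn10-ps -1.15. The 4 interferon-induced chemokines, which draw T cells and monocytes, overlapped between groups. Cxcl10 was at 15.7 and 8.11 against 56.8 and 15.2, a log2 fold change of 1.59 (SE 0.65), and Cxcl9 at 108 and 49.5 against 221 and 41.5, a log2 fold change of 0.74 (SE 0.76).

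Markers of several cell types were highest in treated replicate 1 as well. For the 10 T cell markers the summed level was 67.04 and 25.2 CPM in saline and 139 and 43.4 in treated lungs, with no marker at 0. For the 9 NK cell markers it was 31.1 and 24.9 against 77.8 and 18.4, and Klrb1c and Klre1 had 0 counts in saline replicate 2. Treated replicate 2 was between the saline libraries for the T cell list and below both for the NK cell list. The 6 alveolar type 2 markers summed to 1628 and 422 against 7954 and 2815, and the 6 airway markers to 1159 and 85.9 against 5731 and 3065, none of them at 0. The 10 macrophage and monocyte markers summed to 2422 and 1678 against 4351 and 3095, most of it Lyz2, a lysozyme that alveolar type 2 cells also express, and the other 9 to 729 and 538 against 732 and 655. The 7 endothelial markers summed to 519 and 409 against 760.4 and 408. The B cell markers Cd79a, Cd79b, Ms4a1 and Pax5 were low, with a sum of 4.33 and 2.11 against 10.1 and 6.98, and Ms4a1 had 0 counts in saline replicate 2. Plasmacytoid dendritic cell markers, from a cell type known for type I interferon, summed to 287 and 294 against 191 and 203, most of it Tcf4, which other cells express, and Siglech, Ccr9 and Klk1 were at 0 in saline replicate 2. Siglech, their defining marker, had 1.003 and 0 CPM in saline and 3.45 and 1.14 in treated lungs. Neutrophil markers went another way, with 1301 and 598 against 802 and 1574, highest in treated replicate 2. The 7 epithelial and tumour markers stayed between 2689.5 and 3849, and the 6 fibroblast markers were lower in both treated libraries, at 5087 and 3504 against 1634 and 1841. The part of these cell types in the levels of the interferon-stimulated genes was not tested.

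**Figure D4:**
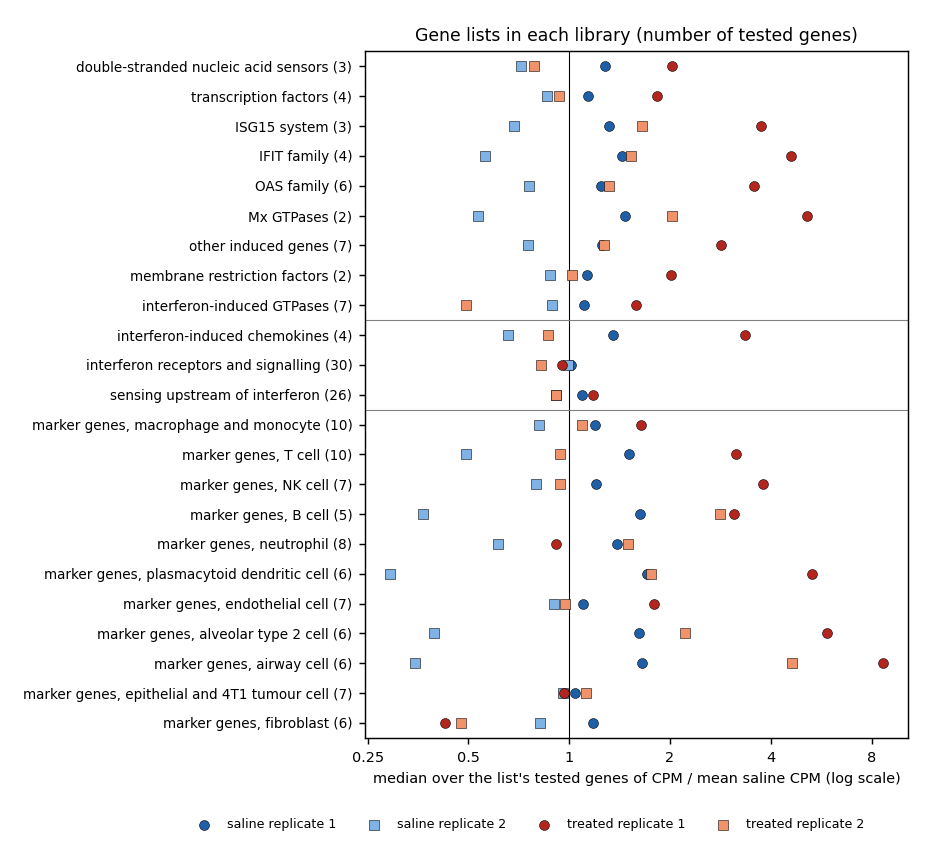
Median over the tested genes of each list of the CPM relative to the mean of the saline libraries (log axis), for the roles of the interferon-stimulated genes (top), related lists (middle) and marker lists (bottom), with the number of tested genes in brackets; blue is saline, red and orange are treated, circles and squares are replicates 1 and 2. Treated replicate 1 is at 4.60 for the IFIT family, 3.79 for NK cell and 5.90 for alveolar type 2 markers, and treated replicate 2 is at 0.492 for the interferon-induced GTPases.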

How the data were processed

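Bulk poly-A RNA sequencing of 4 lung libraries was used, 2 of the saline and 2 of the cmLumiOpto_PARPi group, grouped by their titles. The authors mapped reads with HISAT2 and deposited raw counts per gene without normalization. The methods name GRCm38 and the labels mm39. Of the 52073 genes of the table that are also in GENCODE M21 (GRCm38), 2.76% had the same position there. The table's own positions were therefore not used, and coordinates were taken by Ensembl ID from GENCODE M21. The counting tool and its strand setting are not given in the sources used here, and overlapping or antisense genes may share reads.

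Counts were tested with edgeR 4.0.16 (R 4.3.3): TMM factors, filterByExpr with a minimum count of 10, quasi-likelihood F test, Benjamini-Hochberg adjustment over all 15167 genes tested, threshold 0.05. Fold changes are moderated log2 ratios and CPM uses TMM factors. Each standard error (SE) is the absolute log2 fold change divided by the square root of the F statistic. The fits were tested on simulated data. DESeq2 1.42.0, other scaling factors, no filter, a replicate block, a trend on gene length and level, and leaving out each library were alternatives. Libraries within a group differed beyond sampling noise (chi-square per degree of freedom 26.1 and 44.9), so none was merged. Totals per library of over 15263375 counts put 3 counts at 0.173 to 0.204 CPM.

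The 38 genes and all lists were chosen with earlier results of these data known. All 38 are named; from each other list up to 4 genes in each direction with the lowest unadjusted p could be named, plus Ifng. Some genes are not reported here. Marker lists are given as summed CPM. Shared reads were judged from distinct stretches of 100 bases in GENCODE M21 transcripts. Promoter windows came from RefSeq.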

Additional observations from a re-analysis of the deposited data

How the results depend on the processing

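The count of genes past an adjusted p of 0.05 was 0 of 15167 and that of the interferon-stimulated genes 0 of 38 with edgeR, and both stayed at 0 with the legacy option off and with RLE factors, upper-quartile factors or library totals. DESeq2 called 1011 genes, 3 of them on the list. Without a filter on low counts, 2000 of 25435 genes were called, 22 of them on the list and all higher. Leaving out 1 library gave between 0 and 31 genes and 0 on the list, and the median log2 fold change of the list ran from 0.01 (without treated replicate 1) to 1.38 (without treated replicate 2). Under the other alternatives that median stayed between 0.73 and 0.97. Upper-quartile factors moved the median of all genes by 0.11, to 0.13. The causes of these changes in counts were not tested.

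The libraries share only replicate numbers across groups. Deviations of same-numbered libraries had a Spearman rho of 0.298 over 15167 genes and 0.305 over the 38, across genes that are not independent. A fit with these numbers as a block called 1822 genes (12.0% of those tested) and 19 of the 38, all 19 higher. The block turned Gbp3 to -0.10, Gbp5 to -0.03 and Igtp to -0.03.

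Outside the fits that left out 1 library, the sign of the log2 fold change turned in few other cases. With upper-quartile factors Gbp7 had 0.01 and Iigp1 0.10, and with library totals Iigp1 had 0.08. After a trend on gene length and mean level was taken off, Gbp7 had 0.10, Iigp1 0.25 and Ifitm3 -0.17. Leaving out 1 library turned the sign of 18 genes under at least 1 omission, 15 of them without treated replicate 1. Over the 4 omissions the log2 fold change ran from -0.24 to 1.51 for Ifi44, -0.36 to 0.56 for Ifih1, -0.19 to 0.54 for Irf1, -0.03 to 1.84 for Irf7, -0.45 to 1.02 for Stat2, -0.24 to 1.99 for Oas3, -0.19 to 1.19 for Rtp4, -0.53 to 1.13 for Zbp1 and -0.18 to 1.36 for Dhx58. It ran from -0.19 to 0.94 for Xaf1, -0.26 to 0.24 for Trim25 and -0.02 to 1.38 for Bst2, and among the GTPases from -0.96 to 0.69 for Gbp3, -1.08 to 0.91 for Gbp5, -0.93 to 0.41 for Gbp7, -1.27 to 0.64 for Iigp1, -1.01 to 0.91 for Igtp and -1.02 to 0.19 for Irgm1. With 2 libraries a group, no difference on the list was told from the spread between libraries by edgeR's test with the filter and without the block.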
